A study of Mus musculus with 18 samples.

Results

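The loci described are those of 10 mouse genes that serve leukocyte adhesion to endothelium or NF-kB signalling, namely Vcam1, Icam1, Icam2, Sele, Selp, Nfkb1, Nfkbia, Tnfaip3, Bcl10 and Il1a. Open chromatin was measured by ATAC-seq, which counts where a transposase can cut the DNA, in freshly sorted lung endothelial cells (ECs) of 18 mice. Peaks of the 18 lists on chromosomes 1 to 19, X and Y that overlapped by at least 1 bp were merged, and a merged region was kept when at least 2 lists had a peak in it. A region belonged to a gene when the start site nearest to its midpoint was that gene's, or when the midpoint lay in the gene body. This gave 55 of 47338 regions, of which 53 were chosen by the nearest start site and 2, both inside Selp, by the gene body alone. Vcam1 had 6 regions, Icam1 3, Icam2 7, Sele 1, Selp 5, Nfkb1 7, Nfkbia 10, Tnfaip3 6, Bcl10 7 and Il1a 3. Each region is named below by its gene and the distance of its midpoint from that gene's start site, negative upstream. Tnfaip3 has 2 start sites, and its regions are measured from the nearer. This is chr10:19015410 for Tnfaip3 +0.0 kb and -19.6 kb, and chr10:19011963 for its other regions.

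All mice carried the Col1α1-GFP reporter on the FVB background and were of mixed sex. Lungs were taken on day 30 after an intratracheal dose of PBS (Sham) or of bleomycin at about 1 U/kg (Bleo), a drug that injures the lung and is followed by fibrosis. The groups were Young Sham (2 months, n = 5), Young Bleo (2 months, n = 4), Aged Sham (18 months, n = 4) and Aged Bleo (18 months, n = 5), with 1 mouse per library. ECs were sorted as CD45-, EpCAM-, GFP- and CD31+ cells, a gate meant to leave out leukocytes, epithelium and collagen-producing fibroblasts.

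VCAM-1, ICAM-1, E-selectin and P-selectin are displayed by activated endothelium, where selectins let leukocytes roll and the immunoglobulin-type receptors hold them by their integrins. ICAM-2 is carried by resting endothelium. Nfkb1 encodes the p105 precursor of the NF-kB subunit p50, Nfkbia the inhibitor that keeps NF-kB in the cytoplasm, Tnfaip3 the ubiquitin-editing brake A20, Bcl10 an adaptor that leads receptor signals to NF-kB, and Il1a the cytokine interleukin-1 alpha, which activates endothelium. Nfkbia and Tnfaip3 are themselves switched on by NF-kB.

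Endothelial promoters were open in the sorted cells. Of 8 endothelial promoters (Pecam1, Cdh5, Kdr, Tek, Tie1, Erg, Cldn5 and Emcn), 5 to 8 had a peak in each list, whereas none of 8 leukocyte and none of 6 epithelial promoters had one in any list, Ptprc and Epcam included. Of the endothelial promoters Emcn had a peak in 7 lists, Tek in 15, Pecam1 in 17 and the rest in all 18. Among 8 promoters of fibroblasts and mural cells 1 or 2 had a peak, Pdgfra in all 18 lists and Twist1 in 7, with Col1a1 and Pdgfrb in none. The Pdgfra promoter was at percentiles of 3.44 to 26.2. Of 5 platelet promoters only that of Pf4 had a peak, in 6 lists. These were all 4 Young Bleo lists, 2 lists of aged mice and none of Young Sham, at percentiles of at most 5.87, and the part of platelets in the Young Bleo against Young Sham results was not tested. The lists held 21050 to 40883 peaks, fewest in Aged Bleo 4, and the background at peaks was 1.02 to 1.78 fragments, so a region without a peak was under the threshold of its list and cannot be called closed. Young Sham libraries were all in lane 8, Aged Bleo all in lane 6, Young Bleo 1 to 3 and Aged Sham 1 to 3 in lane 7, Young Bleo 4 in lane 8 and Aged Sham 4 in lane 6, lanes being read from the deposited names. Age and lane cannot be told apart between Young Sham and either aged group. Fits with lane as a term separate lane from group only through Young Bleo 4 and Aged Sham 4.

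Sequences matching the NF-kB consensus of 10 bases lay within 200 bp around the strongest summit of 8 of the 55 regions (14.5%), against 3.56% of all 47338 regions. Among regions over 1 kb from a start site the share was 4 of 46 (8.70%) against 3.48%, so that 4 of the 8 lay within 1 kb of one. The ERG core CAGGAAG, a motif bound by the endothelial ETS factor ERG, was in 18 of the 55 (32.7% against 20%), and the AP-1 site TGANTCA in 2 (3.64% against 8.71%), both strands being searched for each. For regions over 1 kb from a start site the ERG share was 32.6% against 23.7%, and the AP-1 share 4.35% against 10.9%. A match is a description of letters and not evidence of binding. NF-kB matches in 7 of the 8 regions are shown here, on mm10, because they place the pathway's own motif within 6 of the 10 loci, with the match in capitals, 8 bases on either side, and each line read 5′ to 3′ on the strand of the match.
Vcam1 +0.2 kb, chr3:116129509-116129518, plus strand: gaggcggaGGGAAATCCCttcaaggg
Icam2 -9.2 kb, chr11:106391921-106391930, plus strand: tcatttcaGGGGAATCCCactgcagg
Nfkb1 +0.2 kb, chr3:135691507-135691516, minus strand: acgtcagtGGGAATTTCCagccagga
Nfkbia +0.4 kb, chr12:55491957-55491966, plus strand: gccgcccaGGGACTTTCCgtgcccca
Tnfaip3 +2.4 kb, chr10:19009431-19009440, minus strand: ttcgcactGGGGAATTCCacatgtta
Tnfaip3 +0.0 kb, chr10:19015413-19015422, plus strand: gccaacagGGGGATTTCCgatggaaa
Il1a -20.8 kb, chr2:129330769-129330778, plus strand: tctacgccGGGGAATTCCcaaggaag

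The match at Il1a -20.8 kb overlaps a second match displaced by 1 base. RefSeq promoters (GRCm38.p6, 250 bases before to 50 after the start) were given for 7 of the 10 genes, as 8 promoters because Tnfaip3 has 2 start sites. NF-kB matches were in 3 of these 8 promoters (37.5%) against 4.51% of 32851 promoters of the same length, those of Nfkbia, Tnfaip3 and Bcl10. AP-1 matches were in 4 (50% against 7.81%), those of Sele, Selp, Tnfaip3 and Il1a, and ERG matches in 1 (12.5% against 13.3%), that of Sele. At the Sele promoter the AP-1 and ERG matches adjoin, from positions -73 to -60 of the start site. They are shown because no list had a peak within 500 bp of that start site.
Sele promoter AP-1, chr1:164048161-164048167, plus strand: atgtcctaTGACTCAcaggaagc
Sele promoter ERG, chr1:164048168-164048174, plus strand: atgactcaCAGGAAGccagctcc

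**Figure D1:**
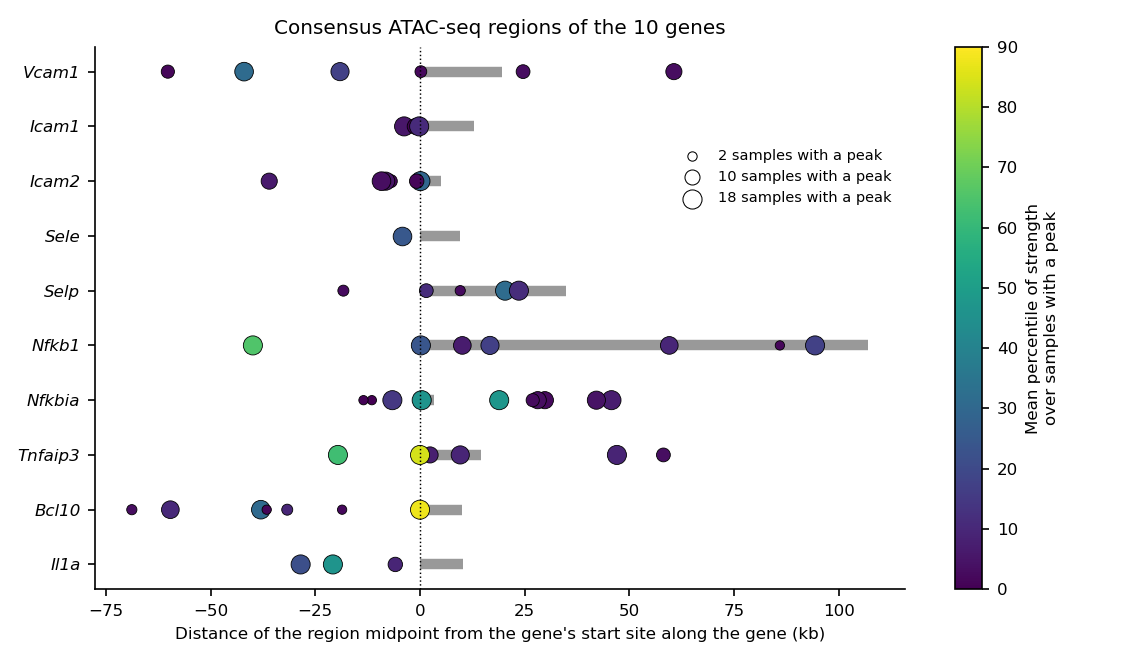
Distance in kb of each of the 55 regions (points) from the start site of its gene, with the gene body as a grey bar, the point size for the number of samples with a peak and the colour for the mean percentile of strength over those samples. The strongest points lie at the start sites of Tnfaip3 and Bcl10, while Sele, Selp and Il1a have no region at their start site.

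Strength was expressed as a percentile, the share of the 17432 regions called in all 18 samples whose fold enrichment over the local background was lower in the same list. A percentile compares a region with others of its own library and is not an amount of open DNA. In bulk cells, an open site in fewer cells and a less open site in each cell cannot be told apart. Of the 55 regions 18 were called in every sample (32.7%, against 36.8% of all regions), 18 in 10 to 17 samples and 19 in 2 to 9. By position 29 regions were intergenic, 17 intronic, 5 in untranslated exons and 4 in promoters (7.27% against 21.3% of all regions), and 34 lay more than 10 kb from the gene's start site. The share of the 55 regions called in a sample ran from 40% in Aged Bleo 4 to 83.6% in Young Bleo 3, beside 43% and 80.2% of all regions in the same samples.

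**Figure D2:**
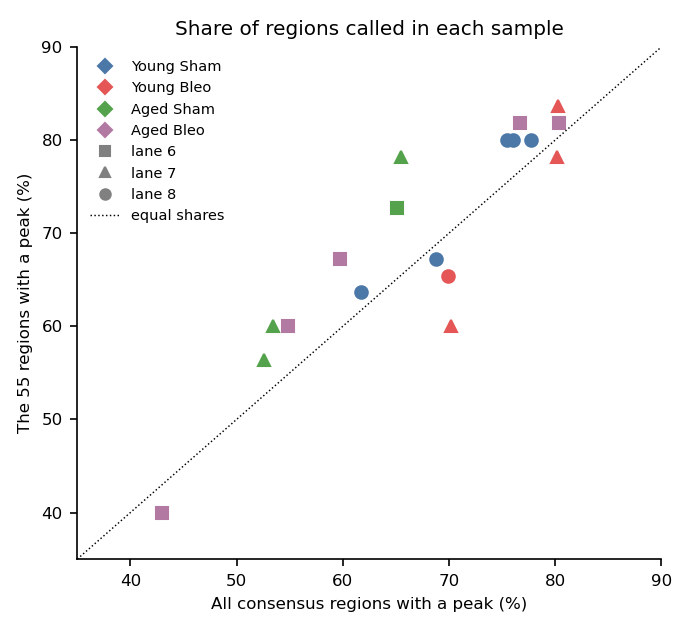
Percent of the 55 regions with a peak in each sample (vertical axis) against the percent of all 47338 regions with a peak in it (horizontal axis), coloured by group with the marker for the sequencing lane. The shares run from Aged Bleo 4 (40% and 43%) to Young Bleo 3 (83.6% and 80.2%), and the samples farthest from the dotted line of equal shares are Aged Sham 2 (78.2% and 65.5%) above it and Young Bleo 1 (60% and 70.2%) below it, with all 4 Aged Sham samples above it.

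The start sites divided the loci. Regions over the start sites of Icam1, Icam2, Nfkb1, Nfkbia and Bcl10, and over the Tnfaip3 start site at chr10:19015410, were called in all 18 samples. At the other Tnfaip3 start site, chr10:19011963, no sample had a peak within 500 bp. Vcam1 had a weak peak near its start site in 5 samples, Selp a peak within 500 bp in 1 sample, and Sele and Il1a in none. On the percentile scale the start sites of Bcl10 (79.4 to 95.7 over the 18 samples) and Tnfaip3 (76.3 to 91.6) were highest and overlapped each other, and no other start site reached them. Next was Nfkbia (34.5 to 69.4), whose range overlapped in part those of Icam2 (12.8 to 48.0) and Nfkb1 (12.8 to 42.2). Icam2 and Nfkb1 did not differ beyond their spread. Icam1 reached down to 1.669 and up to 35.7, the lower end of the 6.

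**Figure D3:**
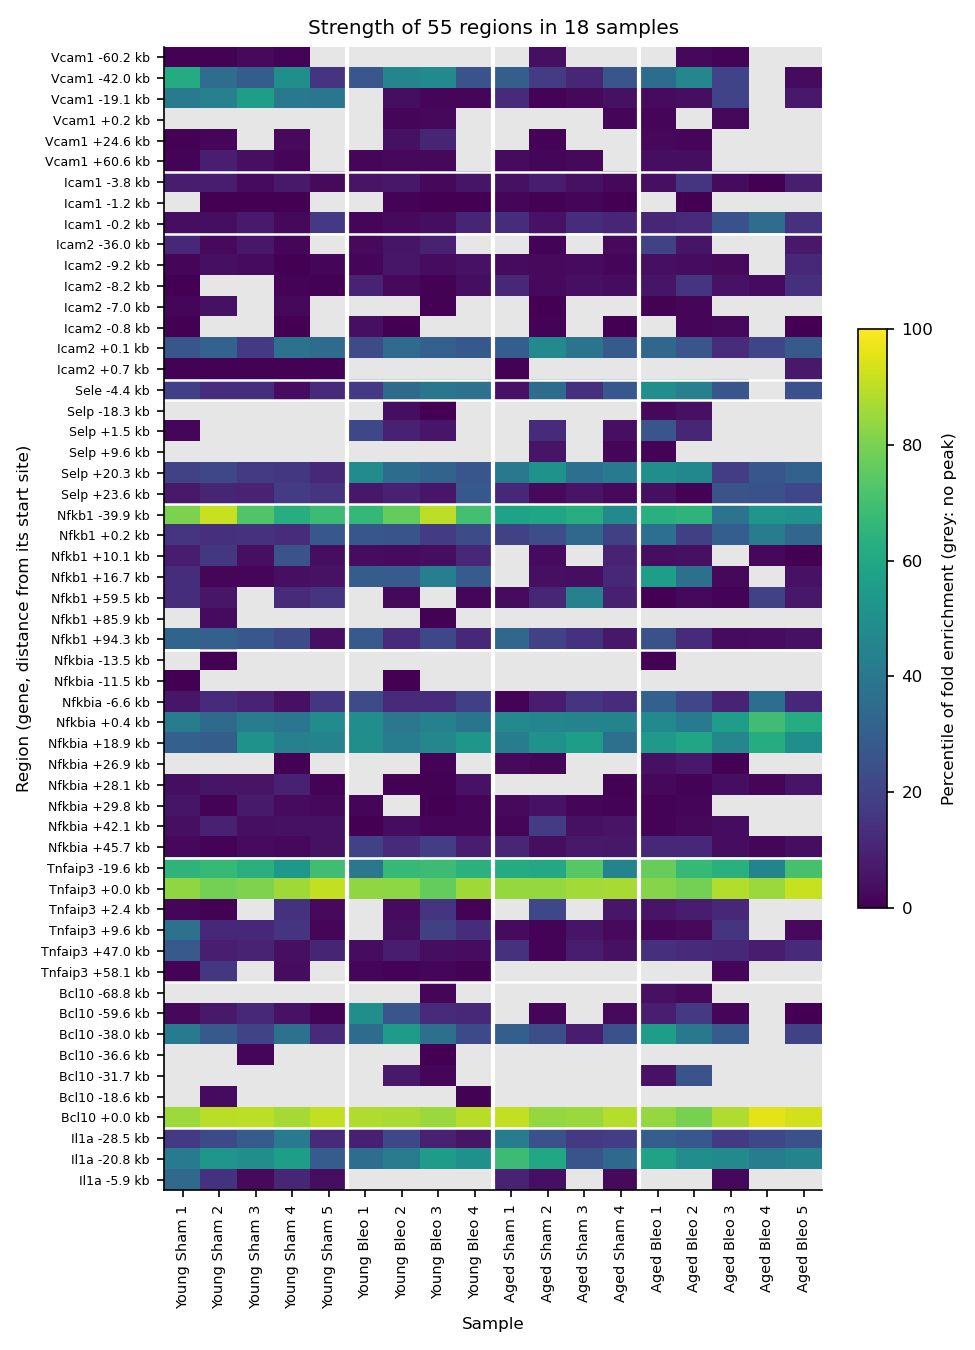
Percentile of strength (colour, 0 to 100) of each of the 55 regions (rows, by gene and distance from the start site) in each of the 18 samples (columns, by group), grey where the sample had no peak. The rows of Tnfaip3 +0.0 kb and Bcl10 +0.0 kb are bright in all samples, and Vcam1 -19.1 kb is brightest in the 5 Young Sham samples.

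Vcam1 had the largest difference between group means among the 55 regions, with a region lacking a peak set to 0. The region Vcam1 -19.1 kb (chr3:116148566-116149061), intergenic, was strong in Young Sham ECs and weak in the other 3 groups. Its percentiles in Young Sham were 40.7, 43.4, 55.8, 39.97 and 39.1. In Young Bleo the first sample had no peak and the others were at 3.69, 1.28 and 1.78. Aged Sham samples were at 12.2, 0.809, 2.07 and 4.66. In Aged Bleo they were 2.80, 3.58, 19.9, no peak and 6.95. The 5 Young Sham samples lay above all 13 others with no overlap. Of all regions, 9.7% had no overlap with Young Sham in Young Bleo, 5.56% in Aged Sham and 5.52% in Aged Bleo, in either direction. Fragments at the summit were 29 to 49 in Young Sham and 10 to 19 in the other samples with a peak. The 200 bases around the strongest summit (chr3:116148737-116148936, plus strand) are printed because this is the region that set Young Sham apart. They hold none of the 3 motifs, so no base is in capitals.
Vcam1 -19.1 kb: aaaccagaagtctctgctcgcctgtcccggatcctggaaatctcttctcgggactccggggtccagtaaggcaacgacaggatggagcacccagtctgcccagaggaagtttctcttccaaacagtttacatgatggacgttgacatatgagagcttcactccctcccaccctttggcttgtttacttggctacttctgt

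Because 2 samples had no peak in it, Vcam1 -19.1 kb was outside the test over regions called in every sample, and it was tested over all regions with a percentile of 0 where there was no peak, a setting chosen after the data were seen. In that limma fit the mean was 43.8 ± 6.92 (SD, n = 5) in Young Sham, 1.69 ± 1.53 (n = 4) in Young Bleo, 4.94 ± 5.13 (n = 4) in Aged Sham and 6.65 ± 7.83 (n = 5) in Aged Bleo. Young Bleo minus Young Sham was -42.1 ± 3.98 (SE, limma adjusted p = 1.84e-04). For Aged Sham minus Young Sham it was -38.8 ± 3.98 (limma adjusted p = 5.06e-04), and for Aged Bleo minus Young Sham -37.1 ± 3.75 (limma adjusted p = 2.31e-04). Aged Bleo differed from Aged Sham by 1.71 ± 3.98 (limma adjusted p = 0.981) and from Young Bleo by 4.96 ± 3.98 (limma adjusted p = 0.643). The effect of bleomycin differed between the ages by 43.8 ± 5.63 (limma interaction, adjusted p = 0.0136). With lane as a term the call for Young Bleo against Young Sham held (-42.0 ± 6.99, limma adjusted p = 0.00778), and Young Bleo 4, which shared lane 8 with Young Sham, was at 1.78. With lane, Aged Sham against Young Sham was -38.6 ± 8.72 (limma adjusted p = 0.111), Aged Bleo against Young Sham was -36.6 ± 11.2 (limma adjusted p = 0.312), and the interaction had an adjusted p of 0.0709.

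The other Vcam1 regions did not show this. The strongest, Vcam1 -42.0 kb (chr3:116171496-116171945), intergenic and farther upstream, was at 61.5, 35.7, 29.5, 49.95 and 14.97 in Young Sham and at 27.1, 45.7, 47.6 and 25.7 in Young Bleo. It was at 30.3, 17.4, 10.7 and 26.7 in Aged Sham and at 35.5, 46.2, 19.9, no peak and 2.89 in Aged Bleo. All 4 groups overlapped, and no comparison passed. Vcam1 -60.2 kb (chr3:116189742-116190013) was a faint region with a peak in 4 of 5 Young Sham, 0 of 4 Young Bleo, 1 of 4 Aged Sham and 2 of 5 Aged Bleo samples, at percentiles of 0.6999 to 4.12 (Young Bleo against Young Sham, two-sided Fisher's exact p = 0.0476). Near the start site, Vcam1 +0.2 kb (chr3:116129372-116129664), annotated as untranslated exon and holding the NF-kB match shown above, was at 1.57 and 2.27 in Young Bleo 2 and 3, 1.80 in Aged Sham 4, 1.49 and 2.26 in Aged Bleo 1 and 3, and had no peak in Young Sham. Downstream of the gene, Vcam1 +24.6 kb and Vcam1 +60.6 kb had peaks in 8 and 12 samples, at 10.4 at most.

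The intercellular adhesion molecules differed less. Icam1 -0.2 kb (chr9:21015244-21016241), over the promoter of the inducible integrin ligand ICAM-1, was at 3.88, 3.71, 7.21, 2.31 and 16.5 in Young Sham and at 1.669, 2.67, 3.81 and 10.5 in Young Bleo. It was at 13.2, 4.77, 13.2 and 10.9 in Aged Sham and at 10.7, 11.9, 25.1, 35.7 and 14.2 in Aged Bleo. All Aged Bleo samples were above all Young Bleo samples, while 4% of all regions were without overlap in that comparison. Neither that difference (14.9 ± 4.55 SE, limma adjusted p = 0.133) nor that with Young Sham (12.8 ± 4.29, limma adjusted p = 0.0671) passed. Their unadjusted exact permutation p were 0.0317 and 0.0397. The 2 highest values were in Aged Bleo 3 and 4, lists of 29049 and 21050 peaks. Start-site regions as a class had median percentiles of 66.0 and 68.0 in them, against 63.1 and 63.9 in Aged Bleo 2 and 1. Aged Bleo 5 did not follow this, with 26886 peaks and a class median of 66.8 but 14.2 at Icam1 -0.2 kb. The part of depth in this result was not tested. Icam1 -1.2 kb (chr9:21014607-21014919) had a peak in 3 of 5 Young Sham, 3 of 4 Young Bleo, 4 of 4 Aged Sham and 1 of 5 Aged Bleo samples, all at or under 1.74 (Aged Bleo against Aged Sham, two-sided Fisher's exact p = 0.0476). Icam1 -3.8 kb was called in all 18 samples, at 0.247 to 15.5, and passed no test.

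Icam2 +0.1 kb (chr11:106382369-106382968), at the start site of the adhesion molecule of resting endothelium, was at 26.8, 31.4, 16.96, 37.8 and 35.2 in Young Sham, and at 23.2, 35.04, 30.5 and 27.5 in Young Bleo. It was at 29.96, 48.0, 38.4 and 28.2 in Aged Sham and at 33.4, 26.4, 12.8, 20.7 and 28.1 in Aged Bleo. The groups overlapped, and the widest difference, Aged Bleo minus Aged Sham at -11.9 ± 5.00 (SE), had a limma adjusted p of 0.256. Icam2 +0.7 kb (chr11:106381885-106382220), intronic, had a peak in 5 of 5 Young Sham, 0 of 4 Young Bleo, 1 of 4 Aged Sham and 1 of 5 Aged Bleo samples. Its percentiles in Young Sham were 0.396 to 0.751, near the floor of what was called. The Aged Sham peak was at 0.637, and the Aged Bleo peak, in Aged Bleo 5, was higher at 6.94. Fisher's exact test (two-sided) gave p = 0.00794 for Young Bleo, 0.0476 for Aged Sham and 0.0476 for Aged Bleo against Young Sham. Icam2 -0.8 kb (chr11:106383412-106383720), in the promoter, was called in 9 samples at 0.0574 to 3.95. Icam2 -8.2 kb (chr11:106390767-106391129) was higher in all Aged Sham and all Aged Bleo samples (2.44 to 15.1) than in all Young Sham samples (0.929 at most). In these comparisons 5.56% and 5.52% of all regions were without overlap. Young Bleo samples were at 9.98, 2.57, 0.459 and 3.64. For Aged Bleo against Young Sham the limma adjusted p was 0.0750 over all regions and the unadjusted exact permutation p 0.00794. The other upstream regions, Icam2 -7.0 kb, -9.2 kb and -36.0 kb (the last in an intron of the neighbouring gene Ern1), had peaks in 7, 17 and 12 samples at 19.4 at most, and passed no test.

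At the selectins the open regions lay away from the start sites. Sele -4.4 kb (chr1:164043520-164044065), the one region of E-selectin, was at 18.9, 12.7, 13.3, 3.18 and 12.4 in Young Sham and at 17.1, 34.6, 39.3 and 37.6 in Young Bleo. It was at 4.69, 35.3, 13.6 and 27.4 in Aged Sham and at 49.2, 43.5, 26.6, no peak and 24.9 in Aged Bleo. Of the 13 samples outside Young Sham 9 were above its highest value, but Young Bleo minus Young Sham (20.1 ± 8.67 SE) had a limma adjusted p of 0.230 and an unadjusted exact permutation p of 0.0159. For Aged Sham and Aged Bleo against Young Sham that p was 0.254 and 0.119. The 200 bases around its strongest summit (chr1:164043623-164043822, plus strand) are shown with the ERG core in capitals, since this was the sole open region of the gene.
Sele -4.4 kb: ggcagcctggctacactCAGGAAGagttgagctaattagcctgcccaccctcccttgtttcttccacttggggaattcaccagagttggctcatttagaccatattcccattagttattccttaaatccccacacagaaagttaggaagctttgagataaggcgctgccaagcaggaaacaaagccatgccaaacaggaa

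P-selectin had 4 intronic regions and 1 upstream. Selp +20.3 kb (chr1:164135269-164135926), in an intron of Selp although the start site of the coagulation factor gene F5 is nearer, was at 19.8, 21.2, 17.04, 16.3 and 11.2 in Young Sham and at 39.9, 51.2, 36.5 and 41.1 in Aged Sham. It was at 48.3, 35.2, 31.7 and 26.8 in Young Bleo and at 49.4, 46.9, 18.3, 26.9 and 31.0 in Aged Bleo. Aged Sham and Young Bleo both lay wholly above Young Sham, and 1 Aged Bleo sample, replicate 3, fell among the Young Sham values. Of all regions, 5.56% and 9.7% were without overlap in these 2 comparisons. Aged Sham rose above Young Sham by 25.1 ± 5.78 (SE, limma adjusted p = 0.0458). Young Bleo was 18.4 ± 5.78 above Young Sham (limma adjusted p = 0.102, unadjusted exact permutation p = 0.00794), and Aged Bleo 17.4 ± 5.45 (limma adjusted p = 0.0518, unadjusted exact permutation p = 0.0238). The Aged Sham call was lost without any 1 Young Sham or Aged Sham sample, without Young Bleo 2 or 3 or Aged Bleo 5, and with percentiles among all peaks of a list (11 ± 6.97, limma adjusted p = 0.409). With lane as a term it was 13.9, with a limma adjusted p of 0.832, and the differences of Young Bleo and Aged Bleo from Young Sham were 9.73 and 7.28. Its 200 bases (chr1:164135453-164135652, plus strand) hold the ERG core on each strand, in capitals.
Selp +20.3 kb: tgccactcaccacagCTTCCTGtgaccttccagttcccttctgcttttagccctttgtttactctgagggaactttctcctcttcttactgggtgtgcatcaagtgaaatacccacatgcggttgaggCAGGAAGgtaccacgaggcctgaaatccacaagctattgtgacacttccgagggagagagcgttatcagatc

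Selp +23.6 kb, the neighbouring intronic region, was called in every sample at 0.642 to 27.4 and passed no test. Selp +1.5 kb (chr1:164116529-164116986), the region closest to the P-selectin start site, had a peak in 1 of 5 Young Sham (1.68), 3 of 4 Young Bleo (21.7, 9.12 and 6.22), 2 of 4 Aged Sham (11.97 and 4.19) and 2 of 5 Aged Bleo samples (26.3 and 10.6). Its Young Bleo minus Young Sham difference was 8.93 ± 5.16 (SE), with a limma adjusted p of 0.385 and an unadjusted exact permutation p of 0.0476. It was -0.336 ± 8.45 (SE) with lane as a term, and Young Bleo 4, in lane 8 with Young Sham, had no peak there. Selp +9.6 kb and Selp -18.3 kb were rare, with peaks in 3 and 4 samples at 5.56 at most.

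**Figure D4:**
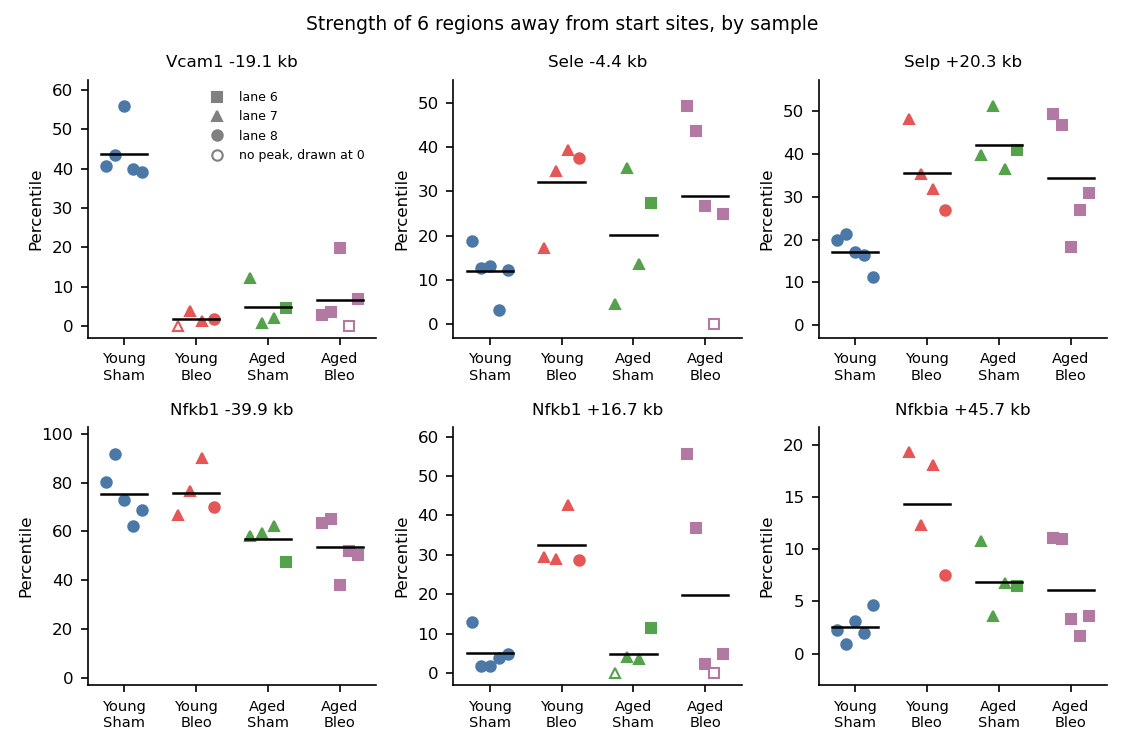
Percentile of strength (vertical axes, each from 0 to its own maximum) of 6 regions away from start sites in each sample, by group, with the group mean as a line, the marker for the lane and an open marker at 0 where there was no peak. At Vcam1 -19.1 kb the Young Sham samples (39.1 to 55.8) lie above all others, and at Selp +20.3 kb they (11.2 to 21.2) lie below all Aged Sham and Young Bleo samples.

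Among the NF-kB genes, Nfkb1 had 2 regions called in Aged Bleo against Young Sham, with opposite signs, in the fit without lane. Nfkb1 +0.2 kb (chr3:135690747-135691958), over the start site and holding an NF-kB match 8 bases from its strongest summit, was at 15.6, 13.7, 14.4, 12.8 and 27.3 in Young Sham and at 26.7, 26.1, 17.2 and 23.02 in Young Bleo. It was at 19.4, 23.6, 33.9 and 19.1 in Aged Sham and at 36.3, 18.9, 29.9, 42.2 and 33.1 in Aged Bleo. The 4 groups overlapped in part, and Young Sham 5 was above all Young Bleo samples. Aged Bleo rose above Young Sham by 15.3 ± 4.17 (SE, limma adjusted p = 0.0299). Nfkb1 -39.9 kb (chr3:135731306-135731682), intergenic and the strongest region of the gene, was at 80.2, 91.7, 72.7, 62.3 and 68.6 in Young Sham and at 66.8, 76.4, 89.9 and 70.1 in Young Bleo. It was at 58.2, 59.2, 62.2 and 47.4 in Aged Sham and at 63.5, 64.9, 37.9, 52.0 and 50.5 in Aged Bleo. All Aged Sham samples were below all Young Sham samples, and all Aged Bleo below all Young Bleo samples. Groups were without overlap at 5.56% of all regions in the first comparison and at 4% in the second. Aged Bleo fell by 21.4 ± 6.07 (SE) against Young Sham (limma adjusted p = 0.0356), whereas Aged Sham minus Young Sham was -18.4 ± 6.44 (limma adjusted p = 0.172) and Aged Bleo minus Young Bleo -22.0 ± 6.44 (limma adjusted p = 0.120), each with an unadjusted exact permutation p of 0.0159. With lane as a term the Aged Bleo against Young Sham values were 21.5 at the start site (limma adjusted p = 0.660) and -16.4 at -39.9 kb (limma adjusted p = 0.824). The start-site call was lost in 7 of 18 omissions of a sample and with percentiles among all peaks (5.55, limma adjusted p = 0.249), and the -39.9 kb call in 6 omissions.

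Nfkb1 +16.7 kb (chr3:135674622-135675102), intronic, separated Young Bleo from Young Sham without passing limma's test. It was at 12.9, 1.84, 1.74, 3.93 and 4.92 in Young Sham and at 29.4, 28.9, 42.7 and 28.7 in Young Bleo. It had no peak, 4.12, 3.69 and 11.3 in Aged Sham, and 55.7, 36.7, 2.26, no peak and 4.77 in Aged Bleo. All Young Bleo samples were above all Young Sham and all Aged Sham samples. Between Young Bleo and Young Sham 9.7% of all regions were without overlap. Aged Bleo split into 2 high and 3 low samples, the 2 high ones (Aged Bleo 1 and 2) having the longest lists of that group. Young Bleo minus Young Sham was 27.4 ± 9.20 (SE), with a limma adjusted p of 0.122 over all regions and an unadjusted exact permutation p of 0.00794. Its 200 bases (chr3:135674731-135674930, plus strand) are shown with the AP-1 site, which spans the summit, in capitals.
Nfkb1 +16.7 kb: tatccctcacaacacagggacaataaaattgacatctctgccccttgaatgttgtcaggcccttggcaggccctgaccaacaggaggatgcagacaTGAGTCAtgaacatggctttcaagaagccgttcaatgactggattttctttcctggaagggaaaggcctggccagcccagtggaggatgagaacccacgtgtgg

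The other 4 Nfkb1 regions were intronic. Nfkb1 +94.3 kb, near the far end of the gene and called in all samples, was at 4.00 to 32.4 in Young Sham and at 2.78 to 24.8 in Aged Bleo, whose samples 3, 4 and 5 were all below 5. It passed the test in Aged Bleo against Young Sham with the replicate block only (limma adjusted p = 0.0324). Nfkb1 +59.5 kb and Nfkb1 +10.1 kb each had a peak in 15 samples, at up to 44.0 and 25.7, and Nfkb1 +85.9 kb in 2 samples, none with a call. Nfkb1 +10.1 kb had an unadjusted exact permutation p of 0.0397 in Aged Bleo against Young Sham (limma adjusted p = 0.163).

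Nfkbia, the inhibitor gene, had 2 regions that passed the test of strength. Nfkbia +45.7 kb (chr12:55446653-55447298), intergenic and downstream, was at 2.24, 0.878, 3.08, 2.00 and 4.67 in Young Sham and at 19.3, 12.3, 18.1 and 7.47 in Young Bleo. It was at 10.8, 3.59, 6.73 and 6.42 in Aged Sham and at 11.02, 10.97, 3.32, 1.73 and 3.61 in Aged Bleo. All Young Bleo samples were above all Young Sham samples, by 11.7 ± 2.72 on average (SE, limma adjusted p = 0.0312), in a comparison where 9.7% of all regions were without overlap. The bleomycin effect was 11.7 in young and -0.757 in aged mice, a difference that the interaction term did not establish (limma adjusted p = 0.359). With lane as a term Young Bleo against Young Sham was 4.90 (limma adjusted p = 0.916), and Young Bleo 4, in lane 8 with Young Sham, was the lowest of its group. The call was lost in 7 of 18 omissions of a sample and with percentiles among all peaks of a list (27.7 ± 7.90, limma adjusted p = 0.156).

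Nfkbia +0.4 kb (chr12:55491660-55492904), spanning the start site, was at 42.0, 34.5, 42.2, 39.2 and 48.1 in Young Sham and at 49.0, 39.5, 44.0 and 38.9 in Young Bleo. It was at 47.0, 46.1, 44.9 and 45.04 in Aged Sham and at 47.8, 40.8, 56.0, 69.4 and 61.9 in Aged Bleo. The 3 highest values were those of Aged Bleo 3, 4 and 5, the 3 shortest lists of that group, and the other 15 samples overlapped. Aged Bleo rose above Young Sham by 14 ± 4.27 (SE, limma adjusted p = 0.0470), and with lane as a term the difference was 9.71 (limma adjusted p = 0.864). The call was lost in 15 of 18 omissions of a sample and with percentiles among all peaks (4.19, limma adjusted p = 0.130). Over the 9675 regions with a start site that were called in all samples the median of Aged Bleo minus Young Sham was 0.644, against -0.148 over the other 7757 regions. Nfkbia +18.9 kb (chr12:55473284-55474253), the strongest region of the gene by its mean, was at 29.5 to 51.3 in Young Sham and at 46.2 to 62.1 in Aged Bleo, a difference of 14.1 ± 4.62 (SE, limma adjusted p = 0.0609, unadjusted exact permutation p = 0.0317). Nfkbia +28.1 kb (chr12:55464298-55464755) had a peak in 5 of 5 Young Sham, 3 of 4 Young Bleo, 1 of 4 Aged Sham and 5 of 5 Aged Bleo samples, all under 10 (two-sided Fisher's exact p = 0.0476 for Aged Sham against Young Sham and for Aged Bleo against Aged Sham). Each of these 2 calls was lost in 8 of 9 omissions of a sample and with equal list lengths, and with 50% overlap the second turned to -0.25 in share of samples (Fisher's exact p = 0.444). Among the other 6 regions Nfkbia -6.6 kb, upstream, was called in all samples at 0.970 to 35.95. The remaining 5 were downstream or farther upstream, had peaks in 2 to 16 samples at 17.8 at most, and none was called. Of these, Nfkbia +42.1 kb had an unadjusted exact permutation p of 0.00794 for Young Bleo and for Aged Bleo against Young Sham (differences of -3.57 and -3.94), and 0.0238 for Aged Bleo against Aged Sham. Nfkbia +29.8 kb had one of 0.0159 for Aged Bleo against Young Sham and against Aged Sham (-3.39 and -2.07). With lane as a term the differences of Aged Bleo from Young Sham were -1.40 and -0.749 at these 2 regions.

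Tnfaip3 and Bcl10 had the start sites of highest percentile among the 10 genes, a rank by fold enrichment and not by fragments, and no difference between groups passed there. Tnfaip3 +0.0 kb (chr10:19014973-19015806) had a mean of 83.9 ± 4.66 (SD, n = 5) in Young Sham, 82.1 ± 4.09 (n = 4) in Young Bleo, 85.4 ± 1.42 (n = 4) in Aged Sham and 85.3 ± 4.97 (n = 5) in Aged Bleo. Bcl10 +0.0 kb (chr3:145923848-145924725) had 88.5 ± 2.40, 87.4 ± 1.78, 87.2 ± 3.11 and 88.1 ± 6.60 in the same order. Differences in the 5 comparisons tested at the 2 start sites were at most 3.16 percentiles in size, beside a standard error of 2.90, and none passed. The distal Tnfaip3 -19.6 kb (chr10:19034756-19035321) was second in that locus at 39.6 to 76.9 and passed no test. Tnfaip3 +58.1 kb (chr10:18953732-18954006) had a peak in 3 of 5 Young Sham, 4 of 4 Young Bleo, 0 of 4 Aged Sham and 1 of 5 Aged Bleo samples (Aged Bleo against Young Bleo, two-sided Fisher's exact p = 0.0476). Tnfaip3 +47.0 kb, downstream of the gene, was called in all samples at 0.809 to 27.9, with an unadjusted exact permutation p of 0.0238 in Aged Bleo against Young Bleo (limma adjusted p = 0.378). Inside the gene Tnfaip3 +9.6 kb and Tnfaip3 +2.4 kb had peaks in 16 and 12 samples at up to 37.9 and 21.5, without a call. At Bcl10, 5 of the 7 regions lay in introns or untranslated exons of the neighbouring gene Ddah1. Of these, Bcl10 -59.6 kb (chr3:145864313-145865099) was at 49.8, 26.3, 12.1 and 11.2 in Young Bleo against 1.02 to 11.3 in Young Sham (limma adjusted p = 0.101 over all regions, unadjusted exact permutation p = 0.0159). The difference of 19.5 was 5.91 with lane as a term. Bcl10 -38.0 kb, the strongest after the start site, had a peak in 17 samples at 7.96 to 56.1, and the other 4 regions had peaks in 2 to 4 samples.

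**Figure D5:**
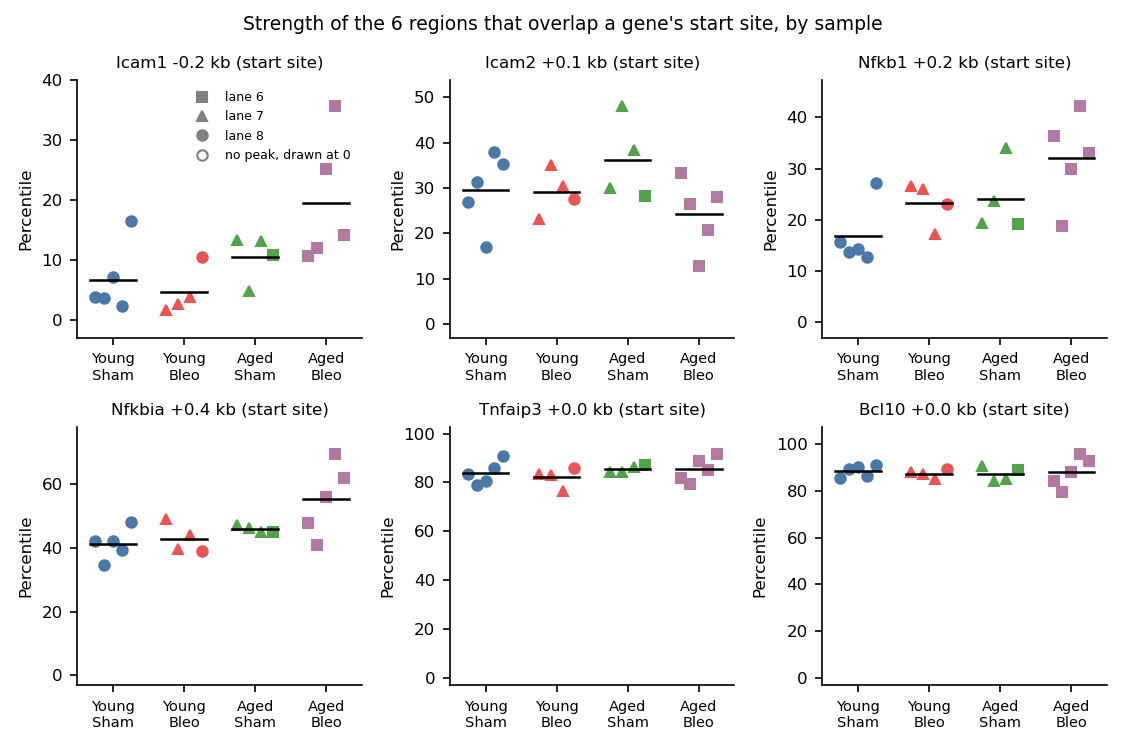
Percentile of strength (vertical axes, each from 0 to its own maximum) of the 6 regions that overlap a start site in each sample, by group, with the group mean as a line and the marker for the lane. Tnfaip3 and Bcl10 stay between 76.3 and 95.7 in all samples, and the highest Icam1, Nfkb1 and Nfkbia values are in Aged Bleo.

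Il1a had no region at its start site and 3 upstream. Il1a -20.8 kb (chr2:129330351-129331187), the strongest, had means of 45.4 ± 10.7 (SD, n = 5) in Young Sham, 45.8 ± 8.53 (n = 4) in Young Bleo, 47.0 ± 20.2 (n = 4) in Aged Sham and 48.4 ± 5.87 (n = 5) in Aged Bleo, with no difference beyond the spread. Il1a -28.5 kb, also called in all samples, was at 5.25 to 21.8 in Young Bleo and at 12.4 to 40.8 in Young Sham, a difference of -13.1 ± 5.83 (SE, limma adjusted p = 0.260). Aged Bleo minus Young Bleo was 13.04 ± 5.83 (SE, limma adjusted p = 0.271, unadjusted exact permutation p = 0.0397). Il1a -5.9 kb (chr2:129315740-129316094), intergenic, had a peak in every Young Sham sample and in few bleomycin samples. Its percentiles in Young Sham were 34.5, 14.5, 2.39, 10.8 and 3.68. No Young Bleo sample had a peak there, 3 of 4 Aged Sham samples did (9.47, 4.12 and 2.53) and 1 of 5 Aged Bleo samples did (2.26). All Young Sham samples were above every bleomycin sample, where 9.7% of all regions had no overlap for Young Bleo and 5.52% for Aged Bleo. Fisher's exact test (two-sided) gave p = 0.00794 for Young Bleo and 0.0476 for Aged Bleo against Young Sham. With equal list lengths both calls were lost (Fisher's exact p = 0.444). The number of Il1a regions called was accordingly 3 in each Young Sham and 2 in each Young Bleo sample (exact permutation p = 0.00794, the smallest the design allows). Its 200 bases (chr2:129315826-129316025, plus strand) are shown with the ERG core, present on each strand, in capitals.
Il1a -5.9 kb: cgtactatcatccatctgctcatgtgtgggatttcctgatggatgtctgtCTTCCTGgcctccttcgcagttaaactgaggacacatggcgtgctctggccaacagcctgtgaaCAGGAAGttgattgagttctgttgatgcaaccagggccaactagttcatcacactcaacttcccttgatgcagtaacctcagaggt

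The calls over the member regions are set beside those over all regions. For the presence of a peak (Fisher's exact test, two-sided, unadjusted p of at most 0.05) Aged Sham against Young Sham called 0 regions higher and 2 lower of 55, beside 5.17% of all regions called in either direction. These 2 are 3.64% of the members. Young Bleo against Young Sham called 0 higher and 3 lower (5.94% of all regions), and Aged Bleo against Young Sham 0 higher and 2 lower (3.21%). Aged Bleo against Aged Sham called 1 higher and 1 lower (0.885%), and Aged Bleo against Young Bleo 0 higher and 1 lower (2.57%). Of these calls the 2 at Il1a -5.9 kb and those at Icam2 +0.7 kb in Young Bleo and Aged Bleo held with each sample left out, and each of the other 6 was lost in 8 of 9 omissions. After Benjamini-Hochberg adjustment over all 47338 regions Fisher's test passed 0 regions in every comparison, since 9 or 10 samples allow no p under 0.00794. Groups lay apart without overlap at 2 member regions higher and 3 lower in Aged Sham against Young Sham (5.56% of all regions). For Young Bleo against Young Sham it was 3 and 4 (9.7%), and for Aged Bleo against Young Sham 1 and 3 (5.52%). Aged Bleo had 1 and 0 against Aged Sham (2.39%) and 1 and 1 against Young Bleo (4%).

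For strength over the regions called in every sample, limma called 1 of 18 member regions in Aged Sham against Young Sham (1.2% of all such regions), 1 in Young Bleo against Young Sham (2.75%) and 3 in Aged Bleo against Young Sham (10.6%). Of 18 regions 1 is 5.56% and 3 are 16.7%. It called 0 in Aged Bleo against Aged Sham (0.344%) and 0 in Aged Bleo against Young Bleo (0.155%). The 3 comparisons with Young Sham share its samples. The median difference over the 18 member regions was 1.33, -0.0922 and 2.15 in the 3 comparisons with Young Sham, beside 0.427, -0.0328 and 0.336 over all regions tested. It was 1.40 in Aged Bleo against Aged Sham (0.104 over all regions) and 3.12 in Aged Bleo against Young Bleo (0.395). Over all 55 members, with 0 where there was no peak, the medians in the 3 comparisons with Young Sham were -0.0952, 0 and 0.195, beside -0.141, 0.132 and -0.00688 over all regions. In that fit the medians were 0.547 in Aged Bleo against Aged Sham (0.164 over all regions) and 0.158 in Aged Bleo against Young Bleo (-0.194). Over all regions, with 0 where there was no peak, limma called 1 member region of 55 in Aged Sham against Young Sham (0.807% of all), 2 in Young Bleo against Young Sham (3.11%) and 2 in Aged Bleo against Young Sham (4.64%). It called 0 in Aged Bleo against Aged Sham (0.038%) and 0 in Aged Bleo against Young Bleo (0.634%). In Aged Bleo against Aged Sham the unadjusted exact permutation p was at most 0.05 in 7.27% of members and 5.88% of all regions. In Aged Bleo against Young Bleo these shares were 9.09% and 10.4%. Unadjusted exact permutation p-values of single regions were at most 0.05 in 38 of 275 member tests (13.8%) over the 5 comparisons, beside 12.7% of tests over all regions, so those printed above are not read as calls. With lane as a term, limma called none of the 18 regions in any of the 5 comparisons. The share of all regions called in that fit is not given here.

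By the number of regions called per gene (exact permutation test, unadjusted p of at most 0.05), 0 of the 10 genes differed in Aged Sham against Young Sham (10.3% of 17953 genes), and 1, Il1a, was lower in Young Bleo against Young Sham (7.6%). Il1a was also the 1 lower in Aged Bleo against Young Sham (5.03%), at a mean of 2.20 against 3.00 regions (exact permutation p = 0.0476). Icam1 was the 1 lower in Aged Bleo against Aged Sham (1.13%), at a mean of 2.20 against 3.00 regions (exact permutation p = 0.0476), and 0 differed in Aged Bleo against Young Bleo (4.27%). No gene passed after adjustment over all genes in any comparison, and the number of peaks in a list moves with this count.

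Other genes of the same pathways were described by lists. Of 25 other genes of leukocyte adhesion and transmigration 23 had regions, 122 in all, of which 3 were lower in Aged Sham against Young Sham, 1 each at Cdh5 (VE-cadherin), Emcn and Itga4. In Young Bleo against Young Sham 2 were higher, at Jam2 and Msn, and 1 lower, at Cdh5, together 2.46% of the list. Of 44 other genes of NF-kB signalling 42 had 133 regions. In Young Bleo against Young Sham 6 of these were higher and 2 lower (6.02%), with 2 higher at Ikbke, an IkB kinase, and in Aged Sham against Young Sham 1 was higher, at Bcl3, and 4 lower (3.76%). Of 16 NF-kB target genes, cytokines and chemokines for the most part, 15 had 39 regions. In Young Bleo against Young Sham 5 of these were higher and 0 lower (12.8%), 2 at Csf1 (macrophage colony-stimulating factor) and 1 each at Cxcl1, Ccl2 and Ccl5, whereas none was called in Aged Sham against Young Sham. In Aged Bleo 0 target regions were higher in any comparison, with 1 lower against Young Sham, 1 lower against Aged Sham and 2 lower, at Cxcl1 and Ccl2, against Young Bleo (5.13%). These are calls at an unadjusted Fisher p of at most 0.05, beside 5.17% of all regions in Aged Sham and 5.94% in Young Bleo against Young Sham, and none passed adjustment. For Aged Bleo the shares of all regions were 3.21% against Young Sham, 0.885% against Aged Sham and 2.57% against Young Bleo. The adhesion list had 0 higher and 2 lower in Aged Bleo against Young Sham, 0 called against Aged Sham and 1 lower against Young Bleo. The signalling list had 1 higher and 3 lower against Young Sham, 1 lower against Aged Sham and 0 called against Young Bleo. By strength over regions called in every sample, limma called 6 of 36 adhesion regions (16.7%), 5 stronger and 1 weaker, and 9 of 61 NF-kB signalling regions (14.8%), 5 stronger and 4 weaker, in Aged Bleo against Young Sham, beside 10.6% of all such regions. Of the signalling list it called 1 stronger and 2 weaker in Aged Sham (4.92% against 1.2%) and 3 weaker in Young Bleo (4.92% against 2.75%) against Young Sham. Against Aged Sham, Aged Bleo had 1 adhesion region stronger (2.78%) and 1 NF-kB signalling region weaker (1.64%), beside 0.344%, and 0 of 10 target regions were called in any comparison.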

How the data were processed

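ATAC-seq peak lists of sorted lung ECs from 18 mice were used, 1 list per mouse. Per the labels and the study's methods, the authors mapped paired-end reads to mm10 with BWA 0.5.9, kept read pairs in which at least 1 end mapped uniquely, removed duplicates with Picard and called peaks in each library separately with MACS2 2.0.10 at an FDR of 1%. The deposited columns hold the fold enrichment at the summit (a ratio to the local background), the −log10 p and −log10 q of MACS2 and a score (a rescaled −log10 q, not used here). Each of these values is relative to its own library, and read totals were not used here, so depth is given as peaks and background fragments. Fragments at a summit were solved from the fold enrichment and −log10 p, and intervals and floors of such numbers cover counting error only.

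Regions, percentiles and motifs were computed in Python 3.11.15 (NumPy 2.4.6, SciPy 1.17.1, pandas 2.3.3) with 45756 RefSeq transcripts and the genome of GRCm38.p6 (mm10). Peaks on the mitochondrial genome (19) were left out. Promoters ran from 1000 bp before to 100 bp after a start site. The authors' own differential test needs read counts and could not be run on peak lists. In its place, presence was tested per region by Fisher's exact test, strength by limma 3.58.1 (R 4.3.3) on percentiles of fold enrichment with all 18 samples in 1 fit, and regions per gene by an exact permutation test, each over all regions or genes. Adjusted p-values are Benjamini-Hochberg. Unadjusted two-sided exact permutation p-values of single regions (0 where there was no peak) are given beside them and made no call. The tests were tested on simulated data. Regions described one by one were promoter regions, regions called in any comparison and the strongest region of each gene. Others were chosen after their values were seen, namely Icam2 -8.2 kb, Nfkb1 +16.7 kb, Selp +1.5 kb, Selp +23.6 kb, Tnfaip3 -19.6 kb, Bcl10 -59.6 kb, Nfkb1 +94.3 kb, Il1a -28.5 kb, Nfkbia +42.1 kb, Nfkbia +29.8 kb, Nfkb1 +10.1 kb, Tnfaip3 +47.0 kb and others given by their range. Genes of the other lists were at most 3 per list and direction, except that the 4 NF-kB target genes were all given. The members and the gene lists were chosen with earlier results of these data known. Libraries are separate mice, so p-values cover the spread between mice and whatever differed between lanes. Alternatives were a stricter peak threshold, equal list lengths, regions in at least 3 samples, 50% overlap, nearest start site only, other percentiles, lane, the replicate number as a block and leaving out each sample. The sequence of 1 region is not reported here.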

Additional observations from a re-analysis of the deposited data

Results flagged for a closer look

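Within groups of 4 or 5, a sample standing far from the rest was looked for in 110 sets of a region and a group, and 10 were found, while chance gives about 1 in 20. Values are percentiles of strength. At Vcam1 -19.1 kb Young Sham 3 was at 55.8, above 39.1 to 43.4 in the other Young Sham samples, so that it stood further from the other groups than they did. Selp +23.6 kb was at 27.4 in Young Bleo 4 against 6.19 to 9.02 in the others of its group.

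At Nfkb1 there were 4 such samples. Nfkb1 +16.7 kb was at 12.9 in Young Sham 1 (others 1.74 to 4.92) and at 42.7 in Young Bleo 3 (others 28.7 to 29.4). Nfkb1 +10.1 kb was at 11.2 in Young Bleo 4 (others 2.90 to 3.60), and Nfkb1 +0.2 kb at 27.3 in Young Sham 5 (others 12.8 to 15.6). Tnfaip3 +47.0 kb was at 27.9 in Young Sham 1 (others 3.93 to 10.2) and at 8.16 in Young Bleo 2 (others 3.26 to 3.60). Tnfaip3 -19.6 kb was at 39.6 in Young Bleo 1, below the others at 63.8 to 68.6, and Nfkbia +42.1 kb was at 8.99 in Young Sham 2 (others 3.96 to 4.49). Young Bleo 4, the 1 library of its group in lane 8, gave 2 of the 10, as did Young Sham 1.

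The effect of bleomycin at Vcam1 -19.1 kb differed between the ages by 43.8 percentiles (limma interaction, adjusted p = 0.0136), being -42.1 in young and 1.71 in aged mice. The aged samples were already low without injury. The adjusted p was 0.0709 with lane as a term and 0.0569 with the replicate block.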

How the results depend on the processing

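The lists hold peaks and no reads, 4 or 5 mice a group limit Fisher's test, and lanes nearly follow the groups. Regions called faintly depend on list length, which ran from 21050 to 40883 peaks. The settings with all regions were chosen after seeing the data. At Vcam1 -19.1 kb all 3 calls against Young Sham held with each of the 18 samples left out, at differences of -43.3 to -39.1 for Young Bleo, -41.3 to -35.8 for Aged Sham and -40.5 to -34.1 for Aged Bleo, and with the replicate block. The presence calls at Icam2 +0.7 kb (Young Bleo and Aged Bleo) and Il1a -5.9 kb also held with each sample left out. With equal list lengths, however, the presence calls at Il1a -5.9 kb (both), Nfkbia +28.1 kb (both) and Icam1 -1.2 kb and the counts of Icam1 regions and of Il1a regions in Aged Bleo were lost. The count of Il1a regions in Young Bleo against Young Sham held (exact permutation p = 0.0317), and the regions Icam2 +0.7 kb, Tnfaip3 +58.1 kb and Vcam1 -60.2 kb gave no value.

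Counts are of member regions or genes called. The shares of all regions or genes called in each setting are not given, here or for the omissions of 1 sample below. A change in a count is therefore not read as particular to the members. For presence, the count in Aged Bleo against Aged Sham was 1 with equal list lengths and 1 with 50% overlap, in Aged Bleo against Young Bleo 0 with a −log10 q of at least 5, 2 with equal list lengths and 3 with 50% overlap, in Aged Bleo against Young Sham 5 with 50% overlap, in Aged Sham against Young Sham 1 with equal list lengths and in Young Bleo against Young Sham 6 with 50% overlap. With 50% overlap Nfkbia +28.1 kb in Aged Bleo against Aged Sham turned to -0.25 in share of samples (Fisher's exact p = 0.444). For strength, the count in Aged Bleo against Aged Sham was 1 with percentiles of −log10 p and 1 with percentiles among all peaks of a list, in Aged Bleo against Young Sham 1 with percentiles among all peaks, 0 with lane, 5 with the replicate block and 0 with all regions and lane, in Aged Sham against Young Sham 0 with percentiles among all peaks, 0 with lane and 0 with all regions and lane, and in Young Bleo against Young Sham 2 with percentiles of −log10 p, 0 with percentiles among all peaks, 0 with lane and 2 with all regions. For regions per gene, equal list lengths gave 0 in Aged Bleo against Aged Sham, 3 in Aged Bleo against Young Bleo, 2 in Aged Bleo against Young Sham, 1 in Aged Sham against Young Sham and 3 in Young Bleo against Young Sham, a −log10 q of at least 5 gave 1 in Aged Sham against Young Sham, and pairing by replicate number gave 0 in Aged Bleo against Aged Sham, Aged Bleo against Young Sham and Young Bleo against Young Sham, where no paired p can be below 0.0625. The cause of the other moves was not tested.

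Leaving out 1 sample gave presence counts of 0 to 1 in Aged Sham against Young Sham, 2 to 3 in Young Bleo against Young Sham, 2 to 3 in Aged Bleo against Young Sham, 0 to 1 in Aged Bleo against Aged Sham and 0 to 1 in Aged Bleo against Young Bleo. Strength counts were 0 to 1, 0 to 1, 0 to 5, 0 to 0 and 0 to 0 in that order, and counts of genes 0 to 0, 1 to 2, 1 to 1, 0 to 1 and 0 to 0. The 6 other presence calls were each lost in 8 of 9 omissions, and held only without Aged Bleo 2 (Icam1 -1.2 kb), Aged Sham 1 (Icam2 +0.7 kb), Aged Sham 4 (both of Nfkbia +28.1 kb), Aged Bleo 3 (Tnfaip3 +58.1 kb) or Young Sham 5 (Vcam1 -60.2 kb). The limma adjusted p of Selp +20.3 kb in Aged Sham against Young Sham ran from 0.0312 to 0.120 and was lost without any 1 Young Sham or Aged Sham sample, Young Bleo 2 or 3, or Aged Bleo 5. For Nfkbia +45.7 kb in Young Bleo against Young Sham it ran to 0.110, lost without Young Sham 1, 2, 3 or 4 or Young Bleo 1, 2 or 3. For Nfkb1 +0.2 kb it ran to 0.0705, lost without Young Sham 1, 2, 3 or 4 or Aged Bleo 1, 4 or 5, and for Nfkb1 -39.9 kb to 0.0925, lost without Young Sham 1, 2 or 3 or Aged Bleo 3, 4 or 5. The call at Nfkbia +0.4 kb was lost in 15 of the 18 omissions (up to 0.116) and held without Young Sham 5, Aged Bleo 1 or Aged Bleo 2. The replicate numbers did not pair the samples (25 same-numbered pairs, r from -0.194 to 0.336, 5 above 0.1, and 4 of 18 samples closest to their own number). The block added Selp +20.3 kb and Nfkb1 +94.3 kb to the calls of Aged Bleo against Young Sham.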
